A study of Mus musculus with 12 samples.

Results

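The intervals described here are stretches of the 4T1 genome marked by H3K27ac whose centre falls in an exon or at a transcription end site (TTS) of a gene, by the annotation that came with the table, and whose length is at least 400 bp and under 20 kb. There were 11093 of them among 126464 intervals (8.77%), of which 5446 were exon intervals and 5647 were TTS intervals. They were chosen by annotation and length only, with no use of the measured values. Intervals of the same 2 kinds outside the length limits were left out, namely 2262 exon and 2358 TTS intervals that were shorter and 110 exon and 142 TTS intervals that were longer.

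H3K27ac was measured by chromatin immunoprecipitation and sequencing (ChIP-seq) in 4T1, a single mouse mammary carcinoma line, with human chromatin spiked in at 7.5%. Cells were kept for 48 h in vehicle, in 5 mM acetate, in 50 µM etomoxir, in etomoxir with acetate, in etomoxir with 50 µM SB204990, or in all 3 agents. Each of the 6 treatments had 2 libraries, which are called set 1 and set 2 after a name suffix that the labels do not explain. SB204990 was never given without etomoxir, so its own effect cannot be told apart from that of the combination. Nothing in the labels says that the libraries came from separate cultures, so p-values measure only the spread between these libraries. The comparisons ask whether extra acetate, a precursor of acetyl-CoA, and inhibitors of its supply changed H3K27ac in exon and TTS intervals.

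H3K27ac is acetylation of lysine 27 on histone H3, placed by the acetyltransferases p300 and CBP with acetyl-CoA as the donor, and it marks active promoters and enhancers. It is not a mark of exons or of transcript ends as such, but first exons lie beside promoters, compact genes bring a start site close to an end site, and enhancers can lie inside or just behind genes. Etomoxir blocks carnitine palmitoyltransferase, which carries long-chain fatty acids into mitochondria. SB204990 blocks ATP citrate lyase, which makes acetyl-CoA from citrate in the cytosol.

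Values are reads in an interval multiplied by the spike-in factor of the library, called scaled reads below, and levels of intervals of different length are compared per kb of interval. The libraries held 7179165 to 16676442 reads in intervals, of which 606436 to 1370182 lay in the exon and TTS intervals. Each set had a scale of factors of its own, for which reason differences within set 1 and within set 2 follow the pooled difference. The etomoxir + SB204990 library of set 2 was the shallowest and stood apart: its log2 values over the exon and TTS intervals had a mean Pearson r of 0.948 with the other libraries, compared with 0.960 to 0.966 for the rest. Of 10 epithelial markers, 9 had an interval over a start site, among them Cdh1 with a mean of 2765 scaled reads and Cldn4 with 2816. Such an interval was found for 1 of 5 blood cell markers (Csf1r, 223), 2 of 3 endothelial markers (Pecam1, 691, and Cdh5, 84.2) and 2 of 3 fibroblast markers (Pdgfra, 191, and Col1a1, 78.2).

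A few stretches show what these intervals contain, all read from the GRCm38 assembly, which is the mm10 build of the table. The first is from an interval of 2989 bp (chr10:60298435-60301423) over exon 10 of 14 of Psap, which encodes the precursor of the lysosomal saposins. It is an example of an internal exon interval with no start site inside, and the nearest start site was 5720 bp away. The interval is shown for its change with acetate under etomoxir, and the capitals at chr10:60299779-60299838 mark the beginning of the coding exon.

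Psap exon interval, chr10:60299719-60299838, plus strand: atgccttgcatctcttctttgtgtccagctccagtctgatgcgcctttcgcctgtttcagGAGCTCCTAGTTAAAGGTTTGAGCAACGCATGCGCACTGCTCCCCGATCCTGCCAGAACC

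The next is from an interval of 5708 bp (chr12:83985118-83990825) over exon 1 of Acot2, which encodes a mitochondrial acyl-CoA thioesterase. It is an example of an exon interval that also holds a promoter, with 2965 bp inside the gene and 1 annotated start site. The capitals at chr12:83988422-83988481 mark the end of the coding part of exon 1, and the lower case after them is the beginning of intron 1.

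Acot2 exon interval, chr12:83988422-83988541, plus strand: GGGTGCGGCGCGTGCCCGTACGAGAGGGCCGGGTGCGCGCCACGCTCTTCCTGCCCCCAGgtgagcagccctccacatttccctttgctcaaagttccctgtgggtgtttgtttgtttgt

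The last 2 are shown because each holds the letters AGGNCANAGGNCA, the direct repeat with 1 spacer base (DR1) that heterodimers of the fatty acid receptors PPAR and RXR are known to bind. They lie in TTS intervals of the lincRNA gene 4931413I07Rik (18161 bp, chr17:33774033-33792193) and of Zfpm1, which encodes the GATA cofactor FOG1 (2625 bp, chr8:122336692-122339316). The first of these stretches is in an intron of Angptl4, the neighbouring gene, and the second is in the sequence just behind Zfpm1. Capitals mark the match.

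4931413I07Rik TTS interval, chr17:33775721-33775840, plus strand: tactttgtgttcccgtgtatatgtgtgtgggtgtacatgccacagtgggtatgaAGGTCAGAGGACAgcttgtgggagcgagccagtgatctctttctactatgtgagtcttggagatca

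Zfpm1 TTS interval, chr8:122337914-122338033, minus strand: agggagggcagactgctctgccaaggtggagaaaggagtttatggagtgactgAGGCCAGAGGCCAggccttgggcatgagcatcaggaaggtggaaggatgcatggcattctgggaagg

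The letters of this repeat, searched on both strands over whole intervals, were found in 551 of the 11089 exon and TTS intervals on chromosomes (4.97%). The share rose with length, from 3.51% of intervals of 1 to 3 kb to 27.6% of those of 10 kb or more, so a match in the long interval at 4931413I07Rik is common for its length. That interval held another match at chr17:33774404-33774416 in a UTR of Angptl4. No match was found in the Acot2 interval. Of the intervals named below, those of Prdm11 (lowered by etomoxir + SB204990), Ier2, Pecam1 and Kat5 held a match as well. Matches per kb of interval stayed between 0.0221 and 0.0235 at all lengths. Binding at any match was not tested.

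The exon and TTS intervals were spread thinly over many genes. They fell in 7181 host genes, of which 4719 had 1 interval and 138 had at least 5. Mast4, which encodes a microtubule-associated kinase, had 9, and Dst, Rnf213, Tcf4 and Zbtb20 had 8 each. Both kinds occurred in 1423 genes, which is 34.1% of the genes with an exon interval and 32.2% of those with a TTS interval. For 3867 intervals the nearest start site belonged to a gene other than the host. In the 1423 genes with both kinds, the highest TTS interval and the highest exon interval had nearly the same level per kb, with a median log2 ratio of -0.04, and the TTS interval was the higher one in 45.7% of the genes.

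The name of a kind tells where the centre of an interval lies, and much of the interval can be something else. On average 62.7% of the length of an exon interval was exonic in GENCODE, compared with 36.0% for a TTS interval. A transcript end of the host gene lay inside 3788 TTS intervals (67.1%) and inside 1487 exon intervals (27.3%). A start site of any gene lay inside 1597 exon intervals (29.3%) and 1019 TTS intervals, so that 82.0% of the TTS intervals held none. Start sites lay inside 83.1% of promoter intervals and 13.2% of intron intervals of the same lengths.

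Level followed the start sites. Exon intervals with a start site had a median of 26.4 scaled reads per kb (mean of the 12 libraries) and those without one had 15.8. The same medians were 25.7 and 15.9 for TTS intervals. Without a start site, exon and TTS intervals lay close to those in introns (15.4) and between genes (15.1). Among exon intervals, those centred on a first exon had the highest median (23.1, 726 intervals) and those of single-exon transcripts came next (20.2, 603 intervals), while internal exons (16.5, 1783 intervals) and last exons (16.2, 2334 intervals) were lower. Intervals with a start site were also longer, with medians of 3538 bp (exon) and 5755 bp (TTS) against 855 bp and 856 bp without one.

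**Figure D1:**
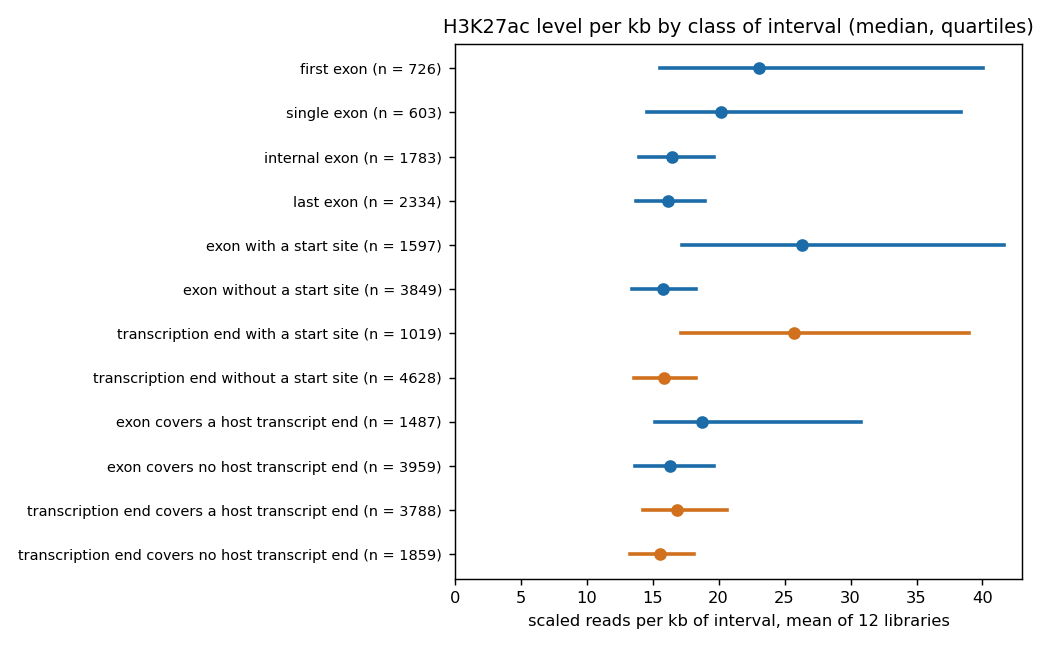
H3K27ac level of exon (blue) and TTS (orange) intervals by class, as scaled reads per kb of interval averaged over the 12 libraries, with points for medians and lines from the lower to the upper quartile over intervals. The classes with a start site (26.4 and 25.7) and first exons (23.1) lie furthest to the right, single-exon intervals follow (20.2), and intervals without a start site sit at 15.8 and 15.9.

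The long intervals held most of the reads. The 492 intervals of 10 kb or more held 36.2% of the reads in exon and TTS intervals, the 1932 intervals of 3 to 10 kb held 43.7%, and the former had a median of 35.6 scaled reads per kb. The 5276 intervals under 1 kb held 6.90% of the reads and had a median of 15.6 per kb. Intervals with a start site held 68.9% to 78.5% of the exon reads and 61.4% to 71.3% of the TTS reads of a library, and the lowest value of both was in the etomoxir + SB204990 library of set 2. Around the length limits the scaled reads per interval ran on: exon intervals within 20 bp below the lower limit had a median of 6.42 and those within 20 bp above it had 6.84, and those within 2 kb below the upper limit had 778 against 879 within 2 kb above it.

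The highest levels per kb were in host genes of several kinds. Among exon intervals on chromosomes, they were at Cdon, which encodes a cell surface receptor that binds Hedgehog (185 scaled reads per kb), at Hjurp, which encodes the chaperone of the centromeric histone (173), and at Ajuba, which encodes a LIM protein of cell junctions (137). Among TTS intervals they were at Ran, which encodes the GTPase of nuclear transport (123), at the less studied genes A930004D18Rik (118) and 2310001H17Rik (114), and at Rps26, which encodes a ribosomal protein (107). Each of these 7 intervals held a start site of its host gene.

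Base composition differed between the kinds. The median GC content was 48.6% in exon intervals and 47.9% in TTS intervals, compared with 45.9% in intron, 45.4% in intergenic and 48.8% in promoter intervals. Within the central 300 bases, searched on both strands, the Sp1-type GC box GGGCGG was present in 11.4% of exon and 5.97% of TTS intervals, against 23.5% of promoter, 4.98% of intron and 6.66% of all intervals of these lengths. The AP-1 letters TGANTCA were present in 8.98% of exon and 9.58% of TTS intervals, against 15.2% of intergenic and 11.9% of all intervals. The polyadenylation letters AATAAA were present in 29.9% of TTS and 22.0% of exon intervals, against 20.7% of promoter, 31.0% of intron and 29.7% of all intervals. None of these motifs contains another, and a match is a description of the letters only.

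To see whether acetate changed the amount of H3K27ac in exon and TTS intervals as a whole, their scaled reads were summed in each library. The sums in set 1 and set 2 were 559044 and 635155 in vehicle, 827091 and 837423 in acetate, 676000 and 650106 in etomoxir, and 1171182 and 1096356 in etomoxir + acetate. They were 445530 and 606436 in etomoxir + SB204990 and 724489 and 942225 in the combination of all 3 agents. Libraries with acetate were higher than the library without it in the same background and set in 6 of 6 pairs, by 1.32 to 1.73-fold, and the highest sums were those of etomoxir + acetate. The mean log2 difference was 0.64 ± 0.14 (SD over 6 pairs, 1.56-fold), with 0.69 in set 1 and 0.60 in set 2. Exchanging acetate labels inside each of the 3 backgrounds, an exact permutation test (two-sided) gave p = 0.00926 (adjusted p = 0.0309 over 10 results), the smallest p that its arrangements can give. Exon intervals (0.63) and TTS intervals (0.65) each had the same p. When reads were first expressed as a share of the library and then multiplied by the factor, which removes depth, the log2 difference averaged 0.44 and the exact permutation p was 0.130.

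Exon and TTS intervals made up nearly the same part of the reads in every library. They held 8.19% to 8.58% of the reads in intervals, with 4.23% to 4.36% in exon and 3.92% to 4.22% in TTS intervals. These shares do not depend on the spike-in factor. Acetate changed the share by a mean log2 difference of 0.015 ± 0.018 (SD, 5 of 6 pairs higher, exact permutation p = 0.130, adjusted p = 0.324), which is less than the spread between pairs. The ratio of TTS to exon reads was between 0.917 and 0.979 in the 12 libraries, and its log2 difference with acetate was 0.02 ± 0.04 (SD, 4 of 6 pairs higher, exact permutation p = 0.352).

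**Figure D2:**
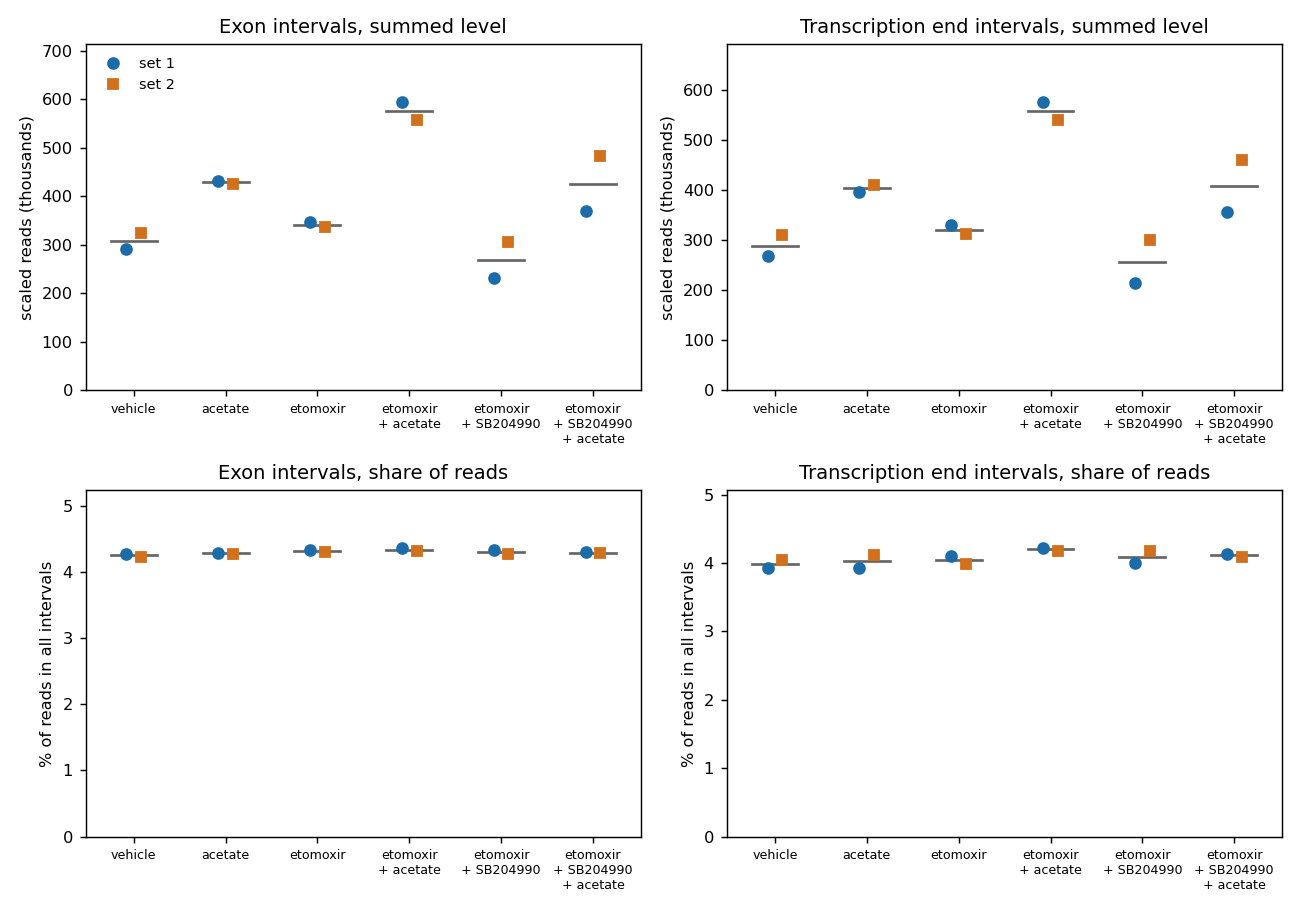
Summed scaled reads (upper panels, in kiloreads) and share of the reads in all intervals (lower panels, %) for exon and TTS intervals in each treatment, with a circle for set 1, a square for set 2 and a line for the mean of both. The sums are higher with acetate in each background, up to 595196 exon and 575986 TTS scaled reads in etomoxir + acetate, while the shares stay between 3.92% and 4.36%.

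The inhibitors without acetate moved the sum less, and not alike in both sets. Etomoxir gave 1.21 times the vehicle sum in set 1 and 1.02 times in set 2. Etomoxir + SB204990 gave 0.797 times the vehicle sum in set 1 and 0.955 times in set 2. With 2 against 2 libraries the smallest exact permutation p is 0.333, so that test could not pass 0.05 here, and no other test of these sums was run.

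Single intervals were tested by limma on log2(scaled reads + 1) across the 63903 intervals whose mean over the libraries reached 10, with Benjamini-Hochberg adjustment, and an interval is called at an adjusted p under 0.05. Of the exon and TTS intervals, 8319 (4136 exon, 4183 TTS) passed this filter and 2774 did not. On this scale the change of low intervals is understated. The same libraries enter several of the comparisons below, and the 2 acetate comparisons with inhibitors each have their own control libraries.

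Acetate alone raised no exon or TTS interval past the threshold. The count was 0 of 8319 in limma, against 0.0955% of all intervals called higher, and edgeR called 0 as well. At an unadjusted p under 0.05 there were 2063, and the median log2 fold change over the tested exon and TTS intervals was 0.49, with 0.48 over all tested intervals. This count moved with the libraries in the fit. It was 1663 and 1673 without the etomoxir + SB204990 library of set 1 or set 2 (21.0% and 21.2% of all tested intervals were then called), 522 and 520 without the library of all 3 agents of set 1 or set 2 (8.98% and 8.99% of all), and 1 without the vehicle library of set 2. It was 1734 when only the vehicle and acetate libraries were fitted (23.3% of all). With a minimum mean of 50 it was 637 of 2624, and 25.6% of all intervals past that minimum were called. With the set as a replicate block, 3.26% of all tested intervals were called, and exon and TTS intervals were among them.

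Acetate added to etomoxir raised most of the tested intervals. Of 8319, 4843 were called higher (58.2%) and 0 lower, against 56.4% of all tested intervals called higher. By kind, 2403 exon intervals (58.1%) and 2440 TTS intervals (58.3%) were called. The median log2 fold change was 0.87 in exon and 0.93 in TTS intervals, with 0.83 over all tested intervals and 0.76 in promoter intervals of the same lengths. Without the etomoxir + acetate library of set 1 or set 2 the count was 600 and 2316 (5144 and 17273 of all 63903 tested intervals were then called), and without the etomoxir library of set 1 or set 2 it was 2217 and 749 (15973 and 6711 of all).

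With both inhibitors present, acetate raised 2035 of 8319 intervals (24.5%) and lowered 0, against 27.4% of all tested intervals called higher, with 1079 exon (26.1%) and 956 TTS intervals (22.9%). The median log2 fold change was 0.63 in both kinds and 0.62 over all tested intervals, and over the exon and TTS intervals it was 0.21 when the etomoxir + SB204990 library of set 1 was left out and 1.00 when its set 2 library was. With only the 4 libraries of the comparison, or without the intensity trend, limma called 0 (753 and 2761 at an unadjusted p under 0.05). Without the etomoxir + SB204990 library of set 2, which stood apart, the count was 5974, with 71.6% of all tested intervals called. It was 647, of which 17 were lower, without the library of set 1 (5754 of all 63903), and 143 without the library of all 3 agents of set 2 (2117 of all). The difference in the acetate change between each inhibitor background and none was tested itself, and that between the 2 inhibitor backgrounds was not. limma called 0 exon and TTS intervals for etomoxir against no inhibitor (190 at an unadjusted p under 0.05, median difference 0.37, or 0.21 and 0.57 without the vehicle library of set 2 or set 1) and 0 for both inhibitors against none (28 at an unadjusted p under 0.05, median difference 0.14). The latter median ran from -0.28 without the etomoxir + SB204990 library of set 1 to 0.49 without that of set 2. edgeR also called 0 for both, with 209 and 34 at an unadjusted p under 0.05.

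Averaged over the 3 backgrounds, acetate raised 6621 of 8319 intervals (79.6%) and lowered 0, against 77.2% of all tested intervals called higher. The called intervals were 3349 exon and 3272 TTS intervals, and the median log2 fold change was 0.67, with 0.64 over all tested intervals. These acetate calls depended on the scaling. After median-of-ratios scaling, which sets the bulk of intervals equal between libraries, limma called 0 exon and TTS intervals for acetate in each background and for the average (232, 531, 313 and 624 at an unadjusted p under 0.05). With the factors kept but depth removed, as a share of the library multiplied by the factor, it also called 0 under etomoxir, under both inhibitors and on average (686, 1 and 414 at an unadjusted p under 0.05). After median-of-ratios scaling the median log2 fold change of etomoxir + acetate vs. etomoxir was 0.05 in exon and 0.11 in TTS intervals, whereas with the share multiplied by the factor it was 0.86 over all tested intervals.

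**Figure D3:**
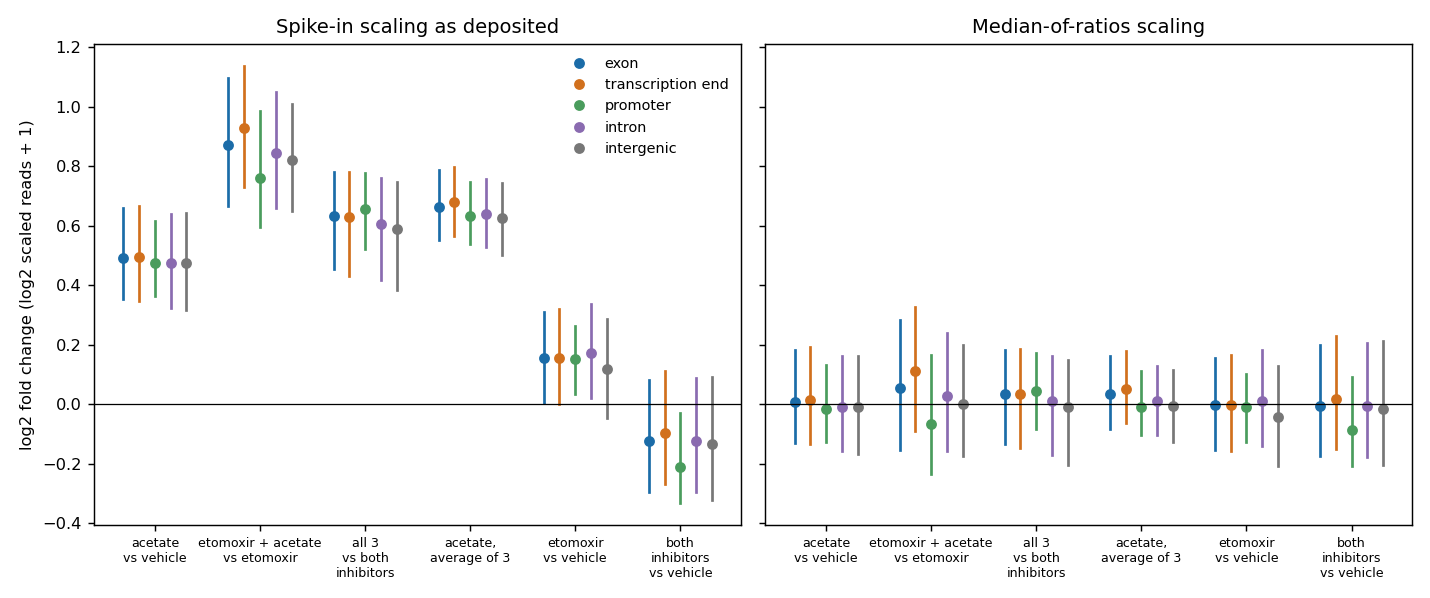
Log2 fold change of tested intervals by kind in 6 comparisons (points, medians over intervals; lines, quartiles), with the deposited spike-in scaling on the left and median-of-ratios scaling on the right. Exon and TTS intervals lie beside the other kinds in each comparison, at 0.87 and 0.93 for etomoxir + acetate vs. etomoxir, and near 0 on the right.

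The median change with acetate varied with the kind of sequence in the interval. For etomoxir + acetate vs. etomoxir, the median log2 fold change was 0.74 in exon intervals with a start site and 0.95 in those without one, and the same medians were 0.81 and 0.96 in TTS intervals. Under both inhibitors the medians with and without a start site were 0.67 and 0.59 in exon and 0.69 and 0.59 in TTS intervals, and this order turned with the library that stood apart. Without the etomoxir + SB204990 library of set 2 they were 0.84 and 1.07 in exon and 0.92 and 1.07 in TTS intervals, which is the order seen under etomoxir. For etomoxir + acetate vs. etomoxir the share called was the higher one where the median was lower, with 74.6% and 84.6% of those with a start site (exon and TTS) and 48.6% and 50.3% of those without, whose median means were 13.2 and 13.3 scaled reads. Length showed a like pattern under etomoxir, with 98.6% of intervals of 10 kb or more called at a median of 0.76 and 31.2% of those under 1 kb called at a median of 0.96. Under both inhibitors the medians were 0.72 at 10 kb or more and 0.53 under 1 kb, and without the same library they were 0.88 and 1.06. First exons had a median of 0.71 and internal exons 0.93 under etomoxir, and 0.66 and 0.63 under both inhibitors, where the order was the other way. By GC content, the highest tercile had 0.99 and the lowest had 0.82 under etomoxir, and 0.69 and 0.58 under both inhibitors. For etomoxir vs. vehicle the order of the GC terciles was opposite, with medians of 0.09 in the highest and 0.22 in the lowest. In genes with both kinds tested (929), the average acetate change was itself averaged over the tested intervals of each kind. The TTS value minus the exon value had a median of 0.00.

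The exon and TTS intervals with the largest changes for etomoxir + acetate vs. etomoxir, among those that were called, averaged 50 scaled reads or more and had 1 direction in set 1 and set 2, were in 6 genes. In 5 of the 6 the mean over the other 10 libraries was under 50 (41.9 to 45.0), so they passed this minimum only through etomoxir + acetate, and their values are given as a description. The Psap interval shown above had 32.7 and 43.6 scaled reads in vehicle, 50.7 and 55.1 in acetate, 35.4 and 29.8 in etomoxir, 115 and 86.4 in etomoxir + acetate, 29.1 and 59.0 in etomoxir + SB204990, and 45.3 and 68.5 in all 3 agents (set 1 and set 2). Its etomoxir + acetate libraries lay above all others. The log2 fold change was 1.59 ± 0.33 (SE, 3.01-fold), with 1.67 in set 1 and 1.51 in set 2. With both inhibitors it was 0.42 (limma adjusted p = 0.322), and the 2 libraries of each treatment overlapped.

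The Zfpm1 interval had 23.4 and 42.0 scaled reads in vehicle, 45.3 and 67.2 in acetate, 31.4 and 24.6 in etomoxir, 93.0 and 89.3 in etomoxir + acetate, 24.3 and 53.0 in etomoxir + SB204990, and 54.3 and 61.6 in all 3 agents. It too was highest in etomoxir + acetate, and it reaches over a start site of the lincRNA gene Gm45353. Its log2 fold change was 1.68 ± 0.34 (SE) for etomoxir + acetate vs. etomoxir and 1.05 ± 0.20 (SE) on average over backgrounds. The other 4 had changes of 1.48 to 1.53. They were an exon interval of Cbx7, which encodes a Polycomb protein (1.53), an exon interval of Srcap, which encodes a chromatin remodelling ATPase (1.52), and TTS intervals of Fbxw9, which encodes an F-box protein, and of Sema3b, which encodes a secreted semaphorin (1.48). Without the etomoxir library of set 2, the calls of Cbx7 (limma adjusted p = 0.0739) and Srcap (0.0595) were lost.

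With both inhibitors, the largest changes were in first exons of Gab1, Sox12 and Zbtb10 and in TTS intervals of Nans, Gm26797 and Pitx3. Gab1 encodes a docking protein of receptor tyrosine kinases. Its exon 1 interval (chr8:80878870-80881626) had 81.3 and 88.7 scaled reads in vehicle, 161 and 167 in acetate, 80.6 and 91.6 in etomoxir, 169 and 173 in etomoxir + acetate, 64.1 and 58.0 in etomoxir + SB204990, and 123 and 160 in all 3 agents. All 6 libraries with acetate were above all 6 without it. The log2 fold change with acetate was 1.19 ± 0.26 (SE, limma adjusted p = 0.000332) under both inhibitors, 0.98 under etomoxir and 1.04 ± 0.15 (limma adjusted p = 1.68e-10) on average, with 0.99 in set 1 and 1.09 in set 2. The interval also covers the start of Gm31105, an antisense gene, and ChIP reads carry no strand.

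Sox12 and Zbtb10 encode a SoxC and a BTB zinc finger transcription factor. Their exon 1 intervals changed by 1.23 ± 0.23 (SE, limma adjusted p = 0.000133) and 1.21 ± 0.21 (limma adjusted p = 5.88e-05) with acetate under both inhibitors. Both changed more in set 2 (1.58 and 1.70) than in set 1 (0.87 and 0.71). The TTS intervals of Nans, which encodes sialic acid synthase, of the lincRNA Gm26797 and of Pitx3, which encodes a homeobox factor, changed by 1.18, 1.18 and 1.17. Without the library of all 3 agents of set 2, the calls of Nans (limma adjusted p = 0.117), Gm26797 (0.106) and Pitx3 (0.0507) were lost, and Nans was also lost without the etomoxir + SB204990 library of set 1 (0.0755). The largest average changes, chosen by the same rule, were those of Rilpl1 (1.10 ± 0.19, SE), which encodes a Rab effector-like protein, of Cx3cr1 (1.08 ± 0.19), which encodes the fractalkine receptor, and of Gab1 among exon intervals. Among TTS intervals they were those of Zfpm1, of the zinc finger gene Zfp740 (1.04 ± 0.19) and of Cdc42bpb (1.03 ± 0.18), which encodes a kinase bound by Cdc42. In 5 of these 6, all but Gab1, the mean over the 6 libraries without acetate was under 50 (33.1 to 41.4), so they passed the minimum only through acetate, and their values are a description. After median-of-ratios scaling none of these named acetate changes was called, and their limma adjusted p ranged upwards from 0.351 (Rilpl1).

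Etomoxir without acetate raised 2 exon and TTS intervals and lowered 0, against 0.0626% of all tested intervals called in either direction. edgeR also called 2. At an unadjusted p under 0.05 there were 97, and the median log2 fold change was 0.15, or -0.02 without the vehicle library of set 1.

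The first is the TTS interval of 4931413I07Rik shown above. It covers the whole of this lincRNA gene, with 1 start site, and 7798 bp of Angptl4, with 4 start sites. Angptl4 encodes a secreted inhibitor of lipoprotein lipase and is a known PPAR target, so the interval is named for its centre although it covers more of Angptl4 than of the lincRNA gene. It had 509 and 620 scaled reads in vehicle and 869 and 832 in acetate, against 1347 and 1469 in etomoxir, 2095 and 2165 in etomoxir + acetate, 1151 and 1184 in etomoxir + SB204990, and 1612 and 2339 in all 3 agents. The 8 libraries with etomoxir (1151 to 2339) and the 4 without it (509 to 869) did not overlap. Etomoxir vs. vehicle gave a log2 fold change of 1.32 ± 0.18 (SE, limma adjusted p = 1.71e-09), with 1.40 in set 1 and 1.24 in set 2. Etomoxir + SB204990 vs. vehicle gave 1.05 (limma adjusted p = 2.10e-05). After median-of-ratios scaling these were 1.16 (adjusted p = 0.0675) and 1.18 (adjusted p = 0.0333), so the former was no longer called. The etomoxir call held when any 1 library was left out. The call with both inhibitors was lost without the vehicle library of set 1 (0.91, limma adjusted p = 0.488).

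The second is the exon 1 interval of Acot2 shown above. It had 117 and 127 scaled reads in vehicle, 215 and 165 in acetate, 246 and 228 in etomoxir, 452 and 372 in etomoxir + acetate, 202 and 203 in etomoxir + SB204990, and 305 and 408 in all 3 agents. The vehicle libraries were the lowest of the 12. The 8 libraries with etomoxir and the 4 without it overlapped, because the acetate library of set 1 lay above both libraries of etomoxir + SB204990. Etomoxir vs. vehicle gave 0.96 ± 0.22 (SE, limma adjusted p = 0.0180), with 1.07 in set 1 and 0.85 in set 2, and etomoxir + SB204990 vs. vehicle gave 0.73 (limma adjusted p = 0.247). After median-of-ratios scaling the former was 0.79 (adjusted p = 0.891). The call was also lost without either vehicle, acetate, etomoxir or etomoxir + acetate library, with limma adjusted p from 0.0521 upwards, and 4931413I07Rik was then among the intervals still called. Acot1 and Acot2 are near-identical neighbours, so the assignment of reads between them is uncertain.

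Etomoxir + SB204990 raised 1 interval, that of 4931413I07Rik, and lowered 1, against 0.0532% of all tested intervals called in either direction. edgeR gave the same counts, and 241 had an unadjusted p under 0.05, with a median log2 fold change of -0.11. The lower one was a TTS interval of Prdm11, which encodes a PR domain transcription factor (11011 bp, chr2:92968643-92979653, with no start site). It had 247 and 340 scaled reads in vehicle, 413 and 465 in acetate, 239 and 214 in etomoxir, 478 and 487 in etomoxir + acetate, 118 and 201 in etomoxir + SB204990, and 256 and 370 in all 3 agents. The libraries with both inhibitors and no acetate were the lowest. The log2 fold change was -0.90 ± 0.21 (SE, limma adjusted p = 0.0261), with -1.05 in set 1 and -0.75 in set 2. After median-of-ratios scaling it was -0.78 (limma adjusted p = 0.0460), and that scaling again called 1 higher and 1 lower (0.0814% of all tested intervals). The call of Prdm11 was lost when a single library was left out in 9 of 12 cases, with limma adjusted p from 0.0922 upwards, and held without either library of all 3 agents or without the etomoxir + SB204990 library of set 2. The median turned with single libraries, to 0.35 without the etomoxir + SB204990 library of set 1, -0.49 without that of set 2 and 0.09 without the vehicle library of set 2. The number of intervals called also moved with single libraries, both among exon and TTS intervals and over all tested intervals.

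**Figure D4:**
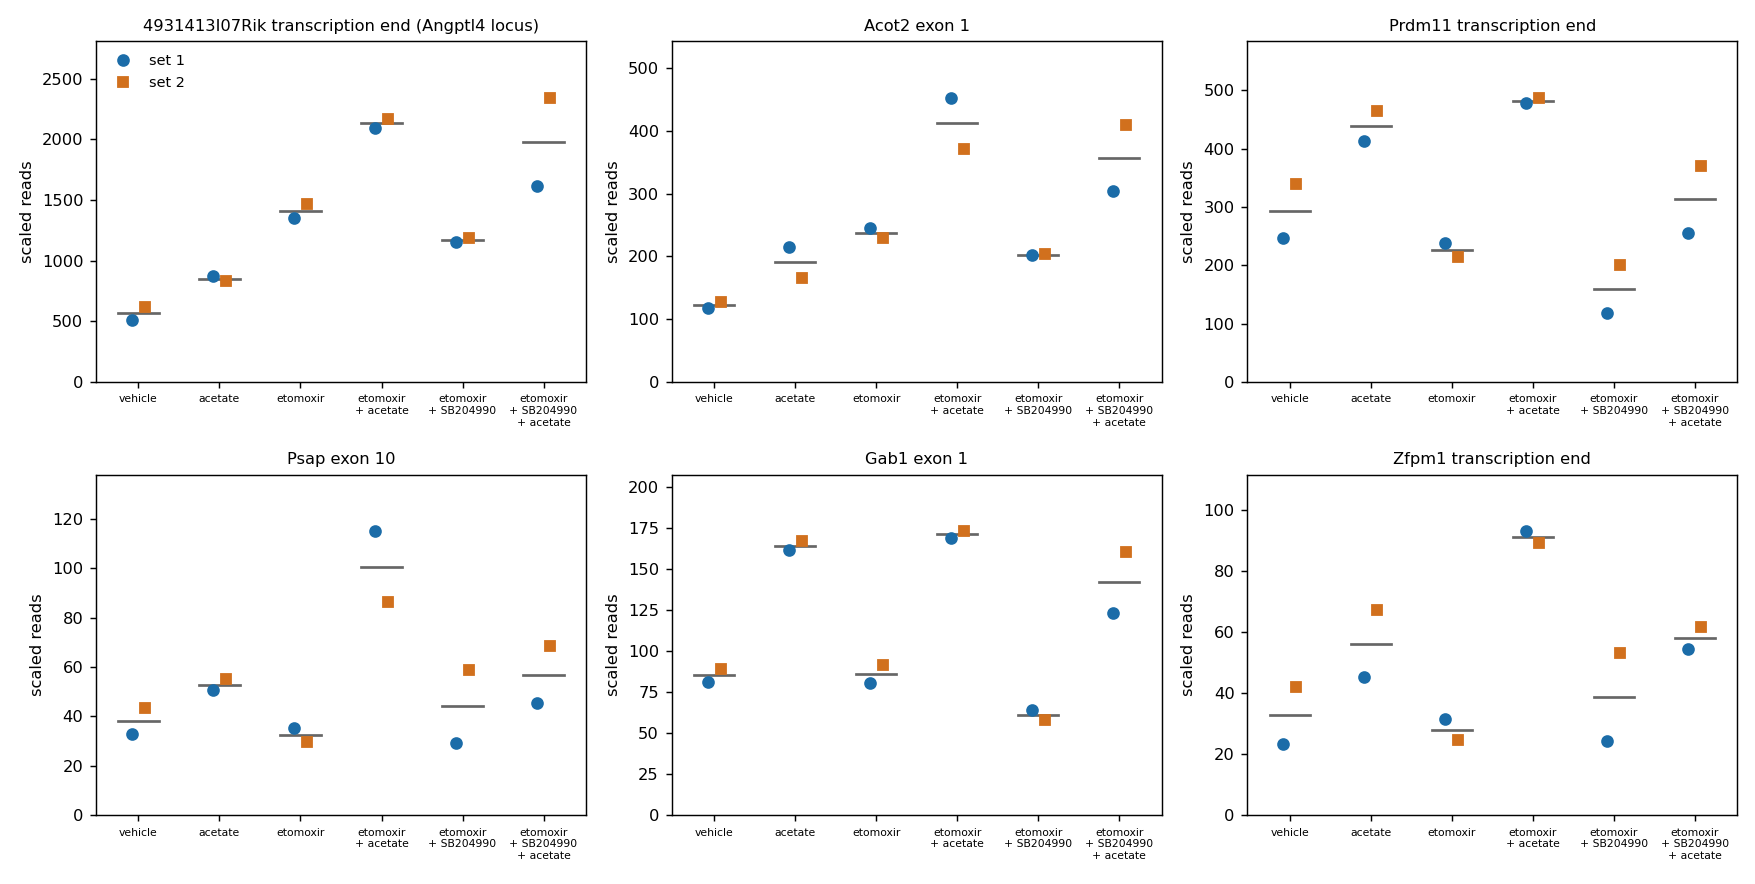
Scaled reads of 6 exon and TTS intervals in each treatment (circle, set 1; square, set 2; line, mean of both). The intervals at 4931413I07Rik and Acot2 are lowest in vehicle (509 to 620 and 117 to 127) and higher with etomoxir, Prdm11 is lowest in etomoxir + SB204990 (118 and 201), and Psap, Gab1 and Zfpm1 are higher with acetate under etomoxir.

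The other genes of these pathways were followed through lists written from general knowledge, with the exon and TTS intervals of their members. The counts of each list stand against 56.4% of all tested intervals called higher with acetate under etomoxir (58.2% of exon and TTS intervals) and 27.4% under both inhibitors (24.5% of exon and TTS intervals), with medians over all tested intervals of 0.83 and 0.62. The lists are small, no difference of a list from these shares was tested, and the counts say nothing particular about their genes. The list of fatty acid oxidation and PPAR targets had 43 such intervals, of which 30 were tested. Etomoxir raised 1 of them (Acot2), with a median log2 fold change of 0.27 against 0.15 over all tested exon and TTS intervals. The longest TTS interval of Cpt1a, the target of etomoxir, had 0.57 (limma adjusted p = 1.00) and was not called. The exon interval of Slc25a20, the carnitine carrier, had 0.56 (limma adjusted p = 1.00) and was not called either. Both were picked after their values were seen. Of all tested exon and TTS intervals, 75.5% had a positive change with etomoxir, so these 2 say nothing particular about their genes. Acetate on top of etomoxir raised 18 of the 30 and lowered 0, with a median of 1.00, and acetate under both inhibitors raised 9, with a median of 0.62. Among the 18 were the TTS intervals of Ppard (1.01) and Rxra (1.15), which encode nuclear receptors, of Cpt1a (1.11), and the exon interval of Ucp3 (1.10), which encodes a mitochondrial carrier.

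The list of acetyl-CoA supply and lipid synthesis had 29 intervals, 24 of them tested. Acetate raised 14 under etomoxir and 4 under both inhibitors and lowered 0, with medians of 1.01 and 0.57. The 4 lay in TTS intervals of Slc25a1, the citrate carrier (0.73), of Pdha1 (0.63) and Pdk3 (0.62), which encode a subunit and a kinase of the pyruvate dehydrogenase complex, and of Fasn, fatty acid synthase (0.75). At Acly, the target of SB204990, 1 of 3 exon and TTS intervals was raised under etomoxir (exon 21 of 28, 1.07, limma adjusted p = 0.0137) and 0 under both inhibitors.

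The list of writers, erasers and readers of histone acetylation had 47 intervals, 37 of them tested. Acetate raised 22 under etomoxir and 11 under both inhibitors and lowered 0, with medians of 0.88 and 0.60. Under etomoxir, the TTS intervals of the acetyltransferase gene Kat5 (0.72) and of the deacetylase genes Hdac1 (0.89) and Sirt6 (0.83) rose. The exon 1 interval of Ep300, which encodes p300, had the highest level of the list among exon intervals (620 scaled reads). It had 0.31 under etomoxir (limma adjusted p = 0.128) and rose by 0.59 under both inhibitors (limma adjusted p = 0.0105), with 0.08 in set 1 and 1.10 in set 2.

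The list for the extracellular matrix and EMT, the epithelial-to-mesenchymal transition, had 67 exon and TTS intervals, 59 of them tested. Acetate raised 37 under etomoxir, 12 under both inhibitors and 0 without an inhibitor, and lowered 0. The medians were 0.89 and 0.57. The exon intervals of Loxl2, which encodes a collagen-crosslinking oxidase (0.89), and the TTS intervals of Fstl3, which encodes a secreted activin antagonist (1.17), and Igfbp4, which encodes an IGF binding protein (0.66), rose under etomoxir. Vim, the mesenchymal filament gene, had a strong exon interval (541 scaled reads) at 0.33 under etomoxir (limma adjusted p = 0.110), and Twist1, which encodes an EMT transcription factor, had 0.42 (adjusted p = 0.0611). Both rose under both inhibitors, by 0.52 and 0.69.

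Keratins and epithelial junction genes had 25 intervals, 20 of them tested, and acetate raised 12 under etomoxir and 1 under both inhibitors, with medians of 1.12 and 0.55. Those of the junction genes Tjp1, Tjp3 and Jup were among the 12, with 1.16 in Tjp1 exon 19, 1.31 in the TTS interval of Tjp3 and 1.31 in a TTS interval of Jup, which was also the 1 called under both inhibitors (1.10). AP-1 and immediate early genes had 11 intervals, 8 of them tested, and acetate raised 6 in either background, with medians of 0.75 and 0.77. Among the 6 were the TTS intervals of Klf10 and Dusp1 and the exon intervals of Atf4, Ier2 and Egr3. Blood and endothelial markers had 6 intervals, all tested, of which 3 rose under etomoxir and 2 under both inhibitors. These were the TTS interval of Spi1 (117 scaled reads) and the exon interval of Pecam1 (679) in both, and the TTS interval of Csf1r (33.0) under etomoxir, at levels well above 0. Their part in the results was not tested.

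Genes with many exon and TTS intervals show the range of changes within a gene, where 77.2% of all tested intervals rose on average with acetate. In Kmt2a, which encodes a histone methyltransferase, 6 of 7 intervals were tested and all 6 rose on average with acetate, by 0.90 to 1.22. In Tcf4, which encodes a basic helix-loop-helix factor, 6 of 8 were tested and all 6 rose, by 0.35 to 0.74, although their levels ran from 9.26 to 82.0 scaled reads per kb. In Zbtb20, which encodes a zinc finger repressor, 1 of 6 tested intervals rose, and the changes were 0.24 to 0.72. In Mast4, 3 of 6 tested intervals rose, with changes of 0.30 to 0.64.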

How the data were processed

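H3K27ac ChIP-seq was analysed in 12 libraries of 4T1 cells. Per the methods of the study, the authors aligned the reads with the nf-core/chipseq workflow to GRCh38 and mm10 joined into 1 reference and derived spike-in factors from the percentage of human reads. The deposited signal is the read count per interval multiplied by that factor. Read counts were recovered from the deposited values, of which 100% were whole within 0.01 reads. Depth therefore stays in the values, and a factor moves all intervals of a library together. Whether intervals were called on pooled libraries is not given in the sources used here. No input library was used here.

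Exon and TTS intervals were selected by annotation and length and matched to GENCODE vM21 (GRCm38), where 11089 of 11093 hosts were found. limma (version 3.58.1, R 4.3.3) was fitted to log2(scaled reads + 1) with an intensity trend and 6 group means over all 63903 intervals with a mean of at least 10. edgeR (version 4.0.16) was run on the recovered counts, and the scripts were tested on simulated data. Summaries used Python 3.11.15. Levels at 0 allow up to 3 reads, which covers counting error only. Named intervals are, per comparison, up to 3 exon and 3 TTS intervals with the largest change among those called with a mean of at least 50 and 1 direction in both sets, those called after median-of-ratios scaling, the 5 highest per kb of each kind, and the highest of each list. 3 of the highest per kb lie on unplaced scaffolds and are not reported here. Other members of lists and host genes were chosen after their values were seen. The members and the lists were chosen with earlier results of these data known. Alternatives were the filter, the pseudocount, the scaling, edgeR, the trend, a replicate block, fewer libraries and other limits on the members.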

Additional observations from a re-analysis of the deposited data

How the results depend on the processing

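Median-of-ratios scaling, total-sum scaling and the library share times the factor each left 0 calls for acetate under etomoxir, under both inhibitors and on average, where the reported counts were 4843, 2035 and 6621. The library share times the factor also gave 0.44, 0.43 and 0.45 (exact permutation p = 0.130) for the sums of all, exon and TTS intervals. For etomoxir vs. vehicle (2 calls) median-of-ratios scaling and that share gave 0 (0.0344% and 0 of all tested intervals). For etomoxir + SB204990 vs. vehicle (2 calls) total-sum scaling gave 6 (0.258% of all) and that share 0 (0 of all). A minimum mean of 50 leaves 2624 exon and TTS intervals. It gave 637 calls for acetate alone (reported 0), 2443 under etomoxir, 2609 on average and 5 for both inhibitors vs. vehicle. Of all intervals past that minimum, 25.6%, 92.3%, 99.1% and 0.436% were called. With no filter the counts were 1238 for acetate under both inhibitors and 1 for each inhibitor comparison. The shares of all intervals were 8.80% for the former, and 0.0166% (etomoxir) and 0.00633% (both inhibitors) for the latter. Without the intensity trend the counts were 3216 under etomoxir (35.9% of all), 0 under both inhibitors and 0 for each inhibitor comparison. None of all tested intervals was called in those last comparisons. With only the libraries of a comparison the counts were 1734 for acetate alone, 0 under both inhibitors, 7 for etomoxir and 1 for both inhibitors vs. vehicle. Of all tested intervals 23.3%, 0.00156%, 0.210% and 0.0125% were then called. With all lengths acetate alone had 1 call, and the TTS share had a log2 difference of 0.020 with an exact permutation p of 0.0278. More than 1 kb from a start site, etomoxir had 1 call.

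Leaving out 1 library gave 0 to 1673 calls for acetate alone, 600 to 6564 under etomoxir, 143 to 5974 under both inhibitors, 4968 to 7982 on average, 1 to 2 for etomoxir and 0 to 231 for both inhibitors vs. vehicle. The counts over all tested intervals moved with the library left out as well. Deviations from the treatment mean correlated above 0.1 in 3 of 15 same-set pairs of treatments (median r -0.06). Shifts of a whole library were taken out first, so a shift shared by a set could not be seen. Whether the set numbers pair the libraries was therefore not settled. With the set as a replicate block, acetate alone had 183 calls (3.26% of all tested intervals). Etomoxir + SB204990 vs. vehicle then had 4 (0.144% of all), and the other counts stayed within 1.5 times. The log2 differences of sums and named intervals kept their sign under the alternatives run. The difference in the exon share, which was not called, was -0.0079 over intervals with a mean of at least 50, and medians over exon and TTS intervals turned for etomoxir vs. vehicle (-0.02 to 0.32) and for etomoxir + SB204990 vs. vehicle (-0.49 to 0.35) when 1 library was left out. edgeR and a pseudocount of 5 left each count within 1.5 times. Depth limits the shallow intervals: 2774 exon and TTS intervals were below the filter and left out. The causes of these changes were not tested.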
